A study of Homo sapiens with 5 samples.

Results

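The regions described here are IRF3 chromatin immunoprecipitation peaks that were listed at gene ends in control cells and not in cells with active Smad3. They were selected on the peak lists themselves, as IRF3 peaks of control (HA) cells that had no base in common with any IRF3 peak of caSmad3 cells and whose centre lay within 1 kb of either end of a protein-coding gene. Of the 4125 IRF3 peaks of HA cells, 3106 lay at gene ends, and 323 of those met the rule (10.4%). These 323 are called control-only peaks. The remaining 2783 gene-end peaks, called shared peaks, had at least 1 base in common with a caSmad3 peak. Among all IRF3 peaks of HA cells, wherever they lay, 710 had no such base (17.2%). These shares describe the choice and support nothing else.

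IRF3 is a transcription factor that sits idle in the cytoplasm until sensors of viral RNA set off its phosphorylation, after which it enters the nucleus. There it binds repeats of the GAAA element in the promoters of interferon beta and of antiviral genes, and many of these promoters also carry a site for NF-kB. Smad3 carries the TGF-beta signal from the receptors to the genome, where it acts with partner factors at short Smad elements.

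BT549 cells, a breast cancer line of the basal-like type, were transduced with lentiviral vectors for stable expression. HA cells carried the control vector, and caSmad3 cells a constitutively active form of Smad3. For both IRF3 libraries the cells were transfected with polyI:C, a synthetic double-stranded RNA, and TGF-beta was not added. The Smad3 libraries came from HA cells under TGF-beta (1 ng/ml, 1.5 h), with mock or polyI:C transfection, and from caSmad3 cells with polyI:C and no TGF-beta. The labels do not say whether the stable cells were single clones.

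Each of the 5 groups is 1 library, so no difference between conditions could be tested. The lists give positions only, and the depth of sequencing is unknown. The IRF3 list of caSmad3 cells was longer (8067 peaks, median width 215 bases) than that of HA cells (4125 peaks, 185 bases). A peak missing from a list is therefore not a measurement of lost binding. Intervals are 95% exact (Clopper-Pearson) ones. They cover the error of counting and nothing more, since neighbouring peaks are not independent and each list comes from 1 library. As to cell identity, 0 of 17 basal and mesenchymal markers, 1 of 18 epithelial and luminal markers (ERBB3, through a shared peak) and 0 of 16 leukocyte markers had an IRF3 peak of HA cells within 1 kb of an end. Peak lists do not measure expression, so the labelled cell type could not be checked with them.

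A minority of the promoters under the control-only peaks hold the sequence that IRF proteins are known to bind, with counts given after the sequences. The interferon-stimulated response element was searched as its core, GAAANNGAAA, on both strands of the RefSeq promoter windows (GRCh38.p14, 250 bases before to 50 after a gene start). IFIT1 and IFIT3 encode antiviral proteins that bind viral RNA or the complexes around it. Their windows, given whole, were picked among those with a core, and their peaks were among the widest of the control-only set. WARS1 had a wider peak (697 bases) over a window with a core. Every core is in capitals (on these strands it reads as its reverse complement).
IFIT1, chr10:89392373-89392672, plus strand: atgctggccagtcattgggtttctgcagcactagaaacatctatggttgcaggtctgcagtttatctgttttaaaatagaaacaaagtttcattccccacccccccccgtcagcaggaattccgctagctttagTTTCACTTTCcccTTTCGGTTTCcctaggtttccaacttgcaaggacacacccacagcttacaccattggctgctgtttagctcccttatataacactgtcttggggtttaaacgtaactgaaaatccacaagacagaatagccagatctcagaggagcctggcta
IFIT3, chr10:89327747-89328046, plus strand: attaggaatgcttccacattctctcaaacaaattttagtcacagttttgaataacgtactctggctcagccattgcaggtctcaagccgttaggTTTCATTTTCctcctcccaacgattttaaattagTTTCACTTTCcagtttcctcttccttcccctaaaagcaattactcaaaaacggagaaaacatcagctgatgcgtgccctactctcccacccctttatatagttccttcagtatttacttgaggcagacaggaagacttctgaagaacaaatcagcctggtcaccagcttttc

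Both windows hold 2 cores that lie inside the IRF3 peak of HA cells. The peaks were chr10:89392329-89392955 (627 bases) at IFIT1 and chr10:89327655-89328309 (655 bases) at IFIT3. The nearest IRF3 peaks of caSmad3 cells were 251142 and 315788 bases away. None of the 3 Smad3 lists had a peak over either region.

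Stretches of at most 60 bases around the core are given for further genes, 5′ to 3′ in the direction of the gene. They were chosen because the gene is a known interferon target and its window under a control-only peak held a core. The presence of a core in each stretch is therefore part of the choice. WARS1 also held a core and is not shown, and PARP9 has the same core as DTX3L.
IFIT5, chr10:89414539-89414598, plus strand: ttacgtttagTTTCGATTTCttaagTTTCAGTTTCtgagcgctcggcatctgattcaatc
MX1, chr21:41420544-41420603, plus strand: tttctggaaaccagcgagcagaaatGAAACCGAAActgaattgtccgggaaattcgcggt
IFI44, chr1:78649746-78649805, plus strand: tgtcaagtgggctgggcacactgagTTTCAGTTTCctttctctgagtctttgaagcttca
IFI6, chr1:27672251-27672310, minus strand: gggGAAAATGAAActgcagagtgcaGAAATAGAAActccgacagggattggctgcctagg
OAS3, chr12:112938437-112938496, plus strand: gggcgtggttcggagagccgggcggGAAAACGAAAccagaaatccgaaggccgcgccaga
IFITM3, chr11:320861-320920, minus strand: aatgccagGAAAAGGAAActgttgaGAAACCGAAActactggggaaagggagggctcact
HERC5, chr4:88456969-88457028, plus strand: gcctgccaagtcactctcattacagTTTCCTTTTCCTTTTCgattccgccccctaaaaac
IFIH1, chr2:162318671-162318730, minus strand: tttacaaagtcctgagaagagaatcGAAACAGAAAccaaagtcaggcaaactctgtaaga
DTX3L, chr3:122564307-122564366, plus strand: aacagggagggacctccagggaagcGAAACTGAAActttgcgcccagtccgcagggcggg
PARP14, chr3:122680785-122680844, plus strand: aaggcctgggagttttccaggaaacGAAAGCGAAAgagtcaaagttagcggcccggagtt
TAP1, chr6:32853798-32853857, minus strand: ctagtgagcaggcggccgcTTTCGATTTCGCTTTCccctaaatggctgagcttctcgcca
IFNL1, chr19:39296168-39296227, plus strand: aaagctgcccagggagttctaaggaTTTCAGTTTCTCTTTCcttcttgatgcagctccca
CD274, chr9:5450309-5450368, plus strand: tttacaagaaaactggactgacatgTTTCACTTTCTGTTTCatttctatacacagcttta

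IFIT5 has a further core upstream of the stretch shown, and all 3 lay within the 128-base peak (chr10:89414463-89414590), that further one 0.5 bases from its centre. The core of IFI44 lay 3.5 bases from the centre of its peak, that of PARP14 4.5 bases and that of MX1, which encodes an antiviral GTPase, 10.5 bases. The core shown for OAS3 lay outside its peak (chr12:112938516-112938655), 119.5 bases from the centre, and a second core lay 250.5 bases from it. TAP1, which encodes a subunit of the peptide transporter of antigen presentation, held 2 overlapping cores outside its peak (chr6:32853594-32853802). CD274 encodes the immune checkpoint ligand PD-L1 and stands in no list used here, so it was chosen after its values were seen. Its peak (chr9:5450449-5450602) was centred 16 bases upstream of the gene start, and its cores lay outside the peak, 181.5 and 187.5 bases from the centre.

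For comparison, ISG15 and B2M had the core under a shared peak. ISG15 encodes a ubiquitin-like protein that is attached to other proteins in the antiviral response, and B2M the light chain of the MHC class I molecule.
ISG15, chr1:1013359-1013418, plus strand: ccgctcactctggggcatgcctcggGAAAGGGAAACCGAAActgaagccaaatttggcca
B2M, chr15:44711348-44711407, plus strand: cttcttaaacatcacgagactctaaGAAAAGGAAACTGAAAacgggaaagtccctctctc

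IFNB1, the gene of interferon beta, and NFKBIZ, which encodes a nuclear regulator of NF-kB, were the genes among IFNB1 and the NF-kB list whose window under a control-only peak matched the NF-kB consensus. The windows under such peaks at CXCL8 and ICAM1 held no match. At CXCL2, CXCL3, IL6 and CCL2 no window lay under a control-only peak, so none was searched there. Each match is in capitals.
IFNB1, chr9:21077974-21078033, minus strand: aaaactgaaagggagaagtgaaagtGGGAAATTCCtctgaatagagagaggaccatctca
NFKBIZ, chr3:101827742-101827801, plus strand: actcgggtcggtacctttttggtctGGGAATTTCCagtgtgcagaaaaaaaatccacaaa

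At IFNB1 this match lay inside the peak chr9:21077925-21078119, and at NFKBIZ outside its peak (chr3:101827925-101828099). The letters GAAANNGAAA were not found in the IFNB1 window under that peak, which says only that these exact letters are not in this window.

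Across the whole set, windows with the core were more frequent under control-only peaks than under shared peaks, whether or not the core itself lay inside the peak. A RefSeq promoter window was overlapped by 165 control-only peaks. The others lay over no window and were not searched, among them those at IFIT2, CCL5, OASL, APOL6 and NLRC5. Of the 165, 26 (15.8%, 10.6 to 22.2) lay over a window with the core. Of the 1914 shared peaks over a window, 64 did (3.34%, 2.58 to 4.25). Among gene-end IRF3 peaks listed in caSmad3 cells alone, it was 44 of 2195 (interval 1.46 to 2.68%), and of all 22199 windows of protein-coding genes 703 hold a core (3.17%). Read the other way, 26 of the 90 gene-end peaks over a window with a core were control-only (28.9%, 19.8 to 39.4), against 139 of the 1989 without one (6.99%, 5.91 to 8.20). The background over all gene-end peaks with a window was 165 of 2079 (7.94%).

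Counted by gene instead of by peak, 35 of the 301 genes of control-only peaks that have a window in the table held the core (11.6%, 8.23 to 15.8). Of genes with shared peaks and no control-only peak, 96 of 2523 did (3.81%, 3.09 to 4.63), and of all protein-coding genes 659 of 15843 (4.16%, 3.85 to 4.48). With 1 mismatch allowed, the shares came closer, at 43.2%, 31.8% and 34.2%. Of the 26 control-only peaks over a window with a core, 15 were at a gene of the 3 interferon-related lists described below. The genes of the other 11 peaks included DDX60L, HIP1R, HAX1, TASOR2, TEP1, MBD4 and GRWD1, which were chosen after their values were seen. Of the 64 shared peaks over a window with a core, 5 were at a gene of the 3 interferon-related lists. Genes of these lists also had control-only peaks over a window without a core, as at RIGI (618 bases), ZC3HAV1 (589 bases) and IRF9 (147 bases). GRWD1 had a shared peak beside its control-only peak, with the core between the 2 peaks and inside neither.

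**Figure D1:**
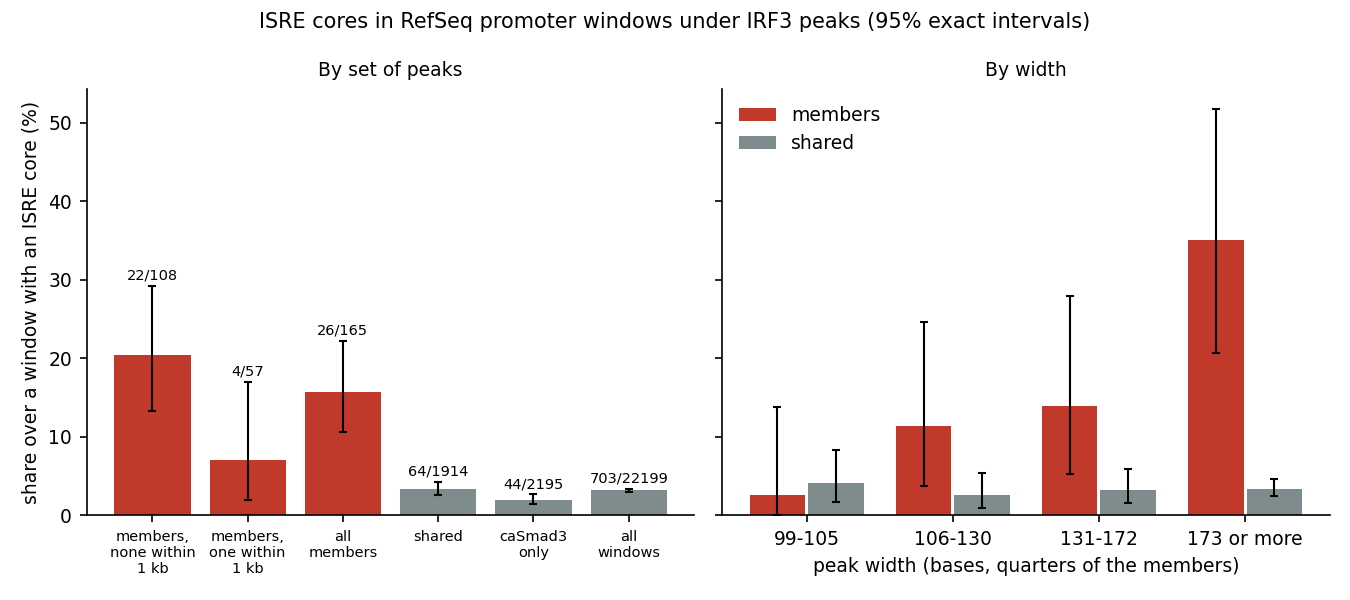
Share of IRF3 peaks (y axis, percent) that overlap a RefSeq promoter window with an ISRE core, by set of peaks (left, with counts) and by peak width (right); bars are shares and lines 95% exact intervals. Control-only peaks (red, "members") reached 35.0% in their widest class (173 bases or more), where shared peaks stood at 3.41%.

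Control-only peaks without a caSmad3 IRF3 peak within 1 kb lay over a window with a core in 22 of 108 cases (20.4%, 13.2 to 29.2). Those with such a neighbour did so in 4 of 57 (7.02%, 1.95 to 17.0), and these intervals overlap. The share also differed with peak width. In 4 width classes, cut at the quartiles of control-only peaks, such a window lay under 1 of 38, 5 of 44, 6 of 43 and 14 of 40 peaks (2.63%, 11.4%, 14.0% and 35.0%). Shared peaks of the same widths gave 4.12%, 2.54%, 3.26% and 3.41%, so in the narrowest class (99 to 105 bases) the control-only share was not the higher one. The nearest core lay inside the peak for 16 of the 26 control-only peaks and for 30 of the 64 shared peaks. Its median distance from the peak centre was 106.5 and 135 bases.

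Most other promoter motifs were closer between the sets of peaks. GAAA repeats with 1 base between them (GAAANGAAA) were found for 14 of 165 control-only peaks (8.48%, 4.72 to 13.8) and 46 of 1914 shared peaks (2.40%, 1.76 to 3.19). Of those 14, 7 also lay over a window with an ISRE core. With 3 bases between the repeats the shares were 3.03% and 1.99%. NF-kB consensus matches stood at 15.8% (10.6 to 22.2) and 12.2% (10.7 to 13.7). For AP-1 (TGANTCA) the shares were 4.24% and 2.87%, for the cyclic AMP element (TGACGTCA) 4.85% and 5.49%, and for ETS (CCGGAAGT) 10.9% and 15.1%. SP/KLF elements (GGGCGG) stood at 68.5% and 73.0%, and CCAAT at 36.4% (29.0 to 44.2) and 44.8% (42.6 to 47.1). NRF1 sites gave 5.45% and 4.13%, YY1 (AAGATGGC) 11.5% and 8.10%, the E-box (CACGTG) 15.2% and 11.5%, and TATAAA 7.27% and 8.10%. The Smad palindrome (GTCTAGAC) was in no window under a control-only peak (0 of 165, interval up to 2.21%) and in 0.209% of those under shared peaks, and CAGAC was at 44.8% and 45.5%. In all windows of protein-coding genes the shares were 2.76% and 2.56% for the repeats with 1 and 3 bases between, 12.7% for NF-kB, 6.15% for AP-1, 2.26% for the cyclic AMP element, 5.34% for ETS, 56.3% for SP/KLF, 34.7% for CCAAT, 1.50% for NRF1, 3.53% for YY1, 8.34% for the E-box, 9.47% for TATAAA, 0.216% for the palindrome and 44.8% for CAGAC. All motifs were searched on both strands, and a match is a description of the letters, not of binding. Median GC content was 62.5% in windows under control-only peaks, 64.0% under shared peaks and 62.3% in all windows.

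**Figure D2:**
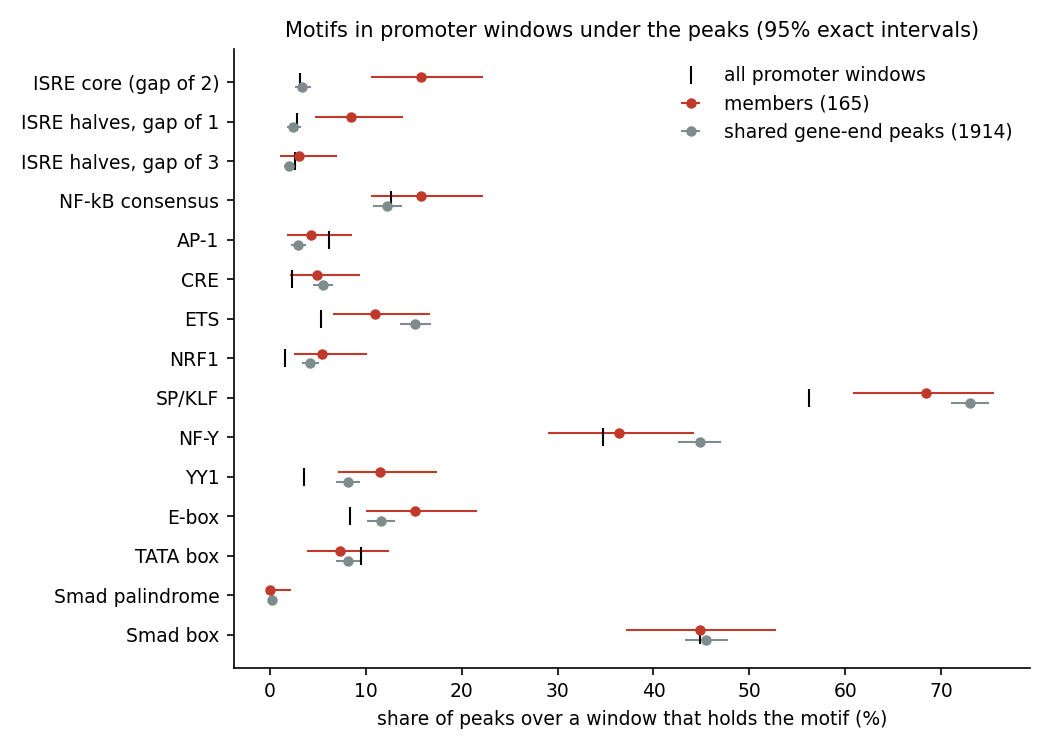
Share of peaks over a promoter window that holds each motif (x axis, percent) for the 165 control-only peaks (red) and 1914 shared peaks (grey), with 95% exact intervals; black ticks mark all windows, and "Smad box" and "NF-Y" stand for CAGAC and CCAAT. The intervals of both sets are apart for the ISRE core (15.8% and 3.34%) and for the repeat with 1 base between (8.48% and 2.40%).

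Control-only peaks lay within 1 kb of an end of 355 protein-coding genes, which is 1.77% of all 20037 and 10.5% of the 3378 with any IRF3 peak of HA cells there. For 83 of the 355 a shared peak lay at an end as well. No IRF3 peak of caSmad3 cells was centred within 1 kb of an end for 192 of the 355 genes, and for 161 none lay within 10 kb. Gene lists were chosen with earlier results of these data known, so their counts describe the set and are no independent evidence.

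Direct IRF3 targets are genes that IRF3 is known to switch on without the help of secreted interferon. Of 20 listed genes, 12 had an IRF3 peak of HA cells at an end, and all 12 had a control-only peak: IFNB1, IFNL1, IFIT1, IFIT2, IFIT3, IFIT5, ISG15, CCL5, OASL, ZC3HAV1, PMAIP1 and HERC5. Among all protein-coding genes with an IRF3 peak of HA cells at an end, the share with a control-only peak was 10.5%. ISG15 and PMAIP1 had a shared peak too. In caSmad3 cells 2 of the 20 genes had an IRF3 peak within 1 kb of an end (10.0%, beside 30.9% of all protein-coding genes). A Smad3 peak was listed there for 0 of the 20 genes after mock transfection, 1 after polyI:C and 0 in caSmad3 cells. Over all 20037 protein-coding genes these counts were 47, 170 and 2084. As 3 counts make 15.0% of the list, its counts are too few to rank it above or below all genes.

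IFIT2 carried the widest control-only peaks of all, with 2071 bases over its upper end (chr10:89307997-89310067) and 1182 bases over its lower end (chr10:89301792-89302973). Between these, further IRF3 peaks of HA cells were listed along the gene, centred more than 1 kb from either end and so outside the rule. CCL5, a chemokine gene, followed with 762 bases over its upper end (chr17:35879891-35880652), and the nearest caSmad3 peak was 70149 bases away. ZC3HAV1 encodes a zinc finger protein that directs viral RNA to decay, and had 589 bases centred 100 bases into the gene (chr7:139109326-139109914) with a caSmad3 peak 2020 bases away. OASL, an antiviral relative of the oligoadenylate synthetases, had 472 bases (chr12:121038556-121039027), and HERC5, which attaches ISG15 to its targets, 414 bases centred 95 bases upstream of its start (chr4:88456817-88457230). These 5 genes had no Smad3 peak over the control-only peak in any of the 3 Smad3 lists.

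IFNB1 formed the largest group of neighbouring control-only peaks, 5 within 2096 bases (chr9:21076024-21078119). They were 195, 287, 156, 334 and 263 bases wide in the direction of the gene, from the start to beyond the end. The nearest IRF3 peak of caSmad3 cells was at least 257074 bases away, and no Smad3 list had a peak within 3 kb of the gene. IFIT1 and ISG15 had 3 control-only peaks each, and IFIT3 had 3 around its start and 2 near its end. Joining peaks within 10 kb of each other, the 323 peaks lay at 292 places. At 22 places there were 2 or more, holding 53 peaks in all.

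ISG15 and CXCL2 had control-only peaks beside shared ones. At ISG15 a shared peak of 750 bases lay over the start, with a caSmad3 IRF3 peak of 309 bases and a Smad3 peak of HA cells given polyI:C of 355 bases overlapping it. The 3 control-only peaks (303, 273 and 248 bases) followed downstream, at the end of the gene and beyond it. CXCL2, a neutrophil chemokine gene, had shared peaks of 306 and 595 bases at its start and first part. Its control-only peaks were 209, 100 and 759 bases wide and lay in the later part and over the end, 574, 857 and 1175 bases from the nearest caSmad3 IRF3 peak. A Smad3 peak of caSmad3 cells (191 bases, chr4:74096338-74096528) lay beyond the end of CXCL2, close to the 759-base peak but not over it. At both genes the start was thus listed in both IRF3 libraries and the end in HA cells alone.

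**Figure D3:**
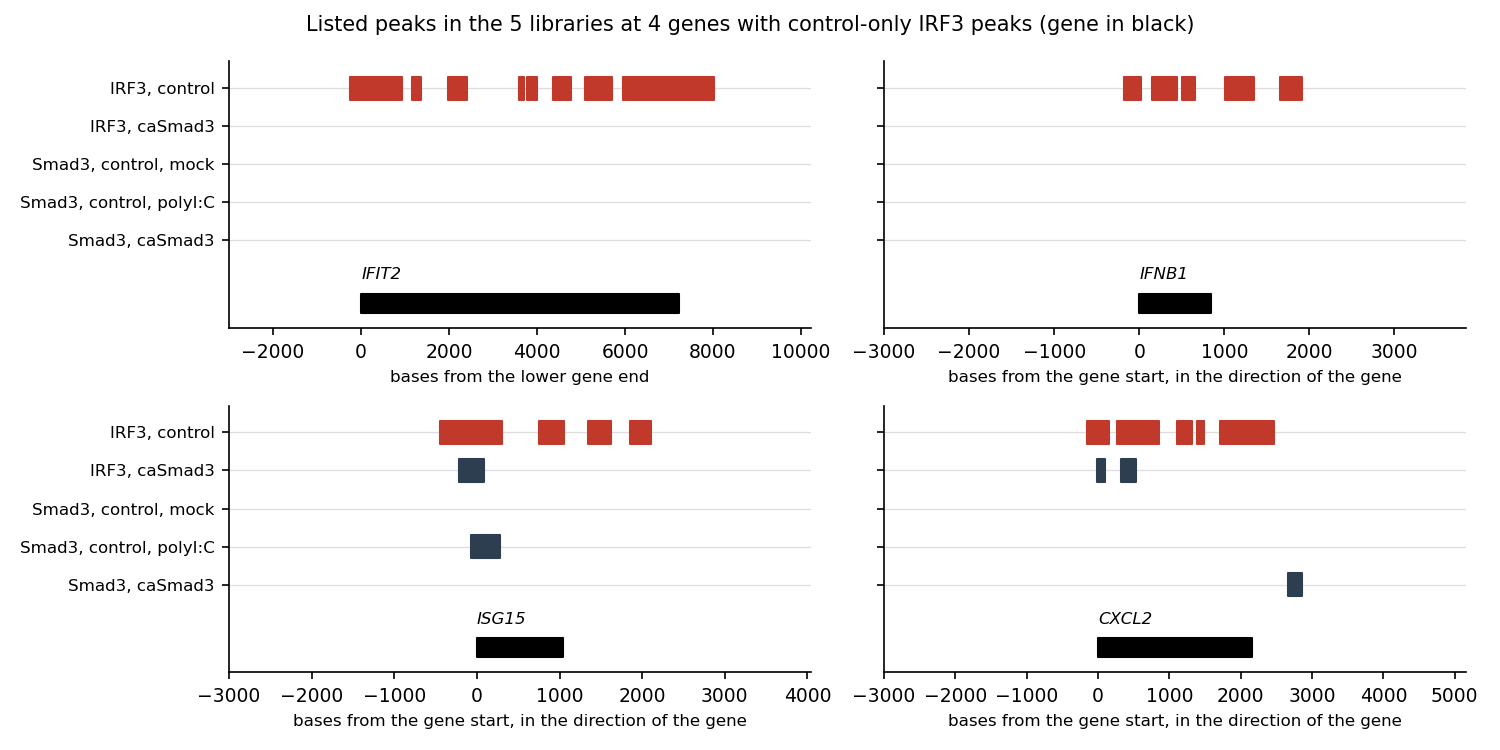
Peaks listed in each of the 5 libraries (1 line each) at IFIT2, IFNB1, ISG15 and CXCL2; the x axis gives bases from the gene start (for IFIT2 from its lower end) and the black bar the gene. IFIT2 and IFNB1 have peaks in the IRF3 list of HA cells only, while ISG15 and CXCL2 also have caSmad3 IRF3 peaks near the start.

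Interferon-stimulated genes made up the next group. Of 68 listed genes, 27 had an IRF3 peak of HA cells at an end. A control-only peak lay at 19 of these 27 (70.4%, beside 10.5% of all such genes). Of the 19, 17 had no caSmad3 IRF3 peak centred within 1 kb of an end. RIGI, the gene of a cytoplasmic sensor of viral RNA, had a peak of 618 bases centred 11 bases from its start (chr9:32525876-32526493) and a second of 127 bases. IFIH1, the gene of the RNA sensor MDA5, shared its 342-base peak with the head-to-head gene GCA (chr2:162318556-162318897), and the nearest caSmad3 peak lay 1010147 bases away. IFI6, a mitochondrial antiviral protein gene, had 511 bases (chr1:27671883-27672393), HERC6 434 bases (chr4:88379163-88379596) and APOL6 423 bases (chr22:35648161-35648583). DTX3L and PARP9, whose products work as a ubiquitin ligase pair, lie head to head and shared peaks of 383 and 157 bases (chr3:122564093-122564475 and chr3:122564597-122564753). MX1 had 287 bases (chr21:41420441-41420727). WARS1, which encodes tryptophanyl-tRNA synthetase, had 697 bases (chr14:100375197-100375893), but a caSmad3 peak stood only 200 bases away, and it had a shared peak too.

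The remaining interferon-stimulated genes with a control-only peak were OAS3, IFI44, IFITM3, IRF7, IRF9, DHX58, PARP14, PML, SAMHD1 and APOL2. Those bound at an end through shared peaks alone included IRF1, IRF2, NT5C3A, PLSCR1, RBCK1, TRIM25 and ZNFX1. In caSmad3 cells 12 of the 68 had an IRF3 peak within 1 kb of an end (17.6%, beside 30.9% of all protein-coding genes). A Smad3 peak stood there for 1 of the 68 genes after mock transfection, 2 after polyI:C and 3 in caSmad3 cells. Over all 20037 protein-coding genes these counts were 47, 170 and 2084. As 3 counts make 4.41% of the list, its counts are too few to rank it above or below all genes.

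Antigen presentation genes numbered 9 with an IRF3 peak of HA cells, and 6 of these had a control-only peak (66.7%, beside 10.5% of all such genes). TAP2, TAP1, PSMB8 and PSMB9 lie next to each other and encode the peptide transporter and immunoproteasome subunits. Their 3 control-only peaks were 221, 164 and 209 bases wide, within 15644 bases of chromosome 6, and the last lay within 1 kb of the starts of both TAP1 and PSMB9. NLRC5, an activator of MHC class I genes, had 192 bases (chr16:56989418-56989609). B2M, HLA-E and PSME2 had shared peaks alone. In caSmad3 cells 5 of the 18 listed genes had an IRF3 peak within 1 kb of an end (27.8%, beside 30.9% of all protein-coding genes). Over the 3 interferon-related lists together, 37 of 106 genes had a control-only peak, or 37 of the 48 with any IRF3 peak of HA cells at an end (77.1%, beside 10.5% of all such genes).

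NF-kB and inflammatory genes gave 7 of 26, or 7 of the 12 with an IRF3 peak of HA cells at an end (58.3%, beside 10.5% of all such genes): CXCL2, CXCL3, CXCL8, CCL2, IL6, ICAM1 and NFKBIZ. Apart from CXCL2, these 6 had no caSmad3 IRF3 peak within 10 kb. Over the whole list, however, 9 of the 26 genes had an IRF3 peak of caSmad3 cells within 1 kb of an end. That is 34.6%, beside 30.9% of all protein-coding genes. CXCL8, the gene of the chemokine interleukin-8, had peaks of 320 and 125 bases just inside the gene (chr4:73740614-73740933 and chr4:73740999-73741123). CCL2, a monocyte chemokine gene, had 228 bases, NFKBIZ 175 bases, ICAM1, an adhesion molecule gene, 170 bases, IL6 124 bases and CXCL3 116 bases. In contrast, the genes of the NF-kB subunits and inhibitor (NFKB2, RELA, RELB and NFKBIA), and CXCL1, were listed with shared peaks alone.

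The other lists had 3 genes or fewer each, and their shares are given among genes with an IRF3 peak of HA cells at an end, beside 10.5% over all such genes. AP-1 and immediate early genes gave 3 of 11 (27.3%), EGR1, IER2 and JUN, each beside a shared peak. EGR1, an early growth response factor gene, had peaks of 408 and 134 bases centred beyond its end. The 179-base peak at JUN, an AP-1 subunit gene, stood 28 bases from a caSmad3 peak, and the 133-base peak at IER2 31 bases from one. The list of TGF-beta/Smad targets gave 1 of 10 (10.0%), the AP-1 subunit gene JUNB, whose 110-base peak stood 177 bases from a caSmad3 peak. RNA sensing genes gave 2 of 5 (40.0%), TICAM1, the adaptor of TLR3, with 99 bases, the smallest width in the list, and TRIM4 with 178 bases. The peak at TRIM4 stood 105 bases from a caSmad3 peak, and that gene had a shared peak too. Cell death genes gave 1 of 7 (14.3%), the kinase gene RIPK1 (261 bases). Cytosolic ribosomal protein genes were bound at an end in 65 of 73 cases, yet RPL36 alone had a control-only peak (99 bases). Of 26 housekeeping genes 18 were bound and 0 had a control-only peak, where 3 counts would make 11.5% of the list.

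The distance from the 323 peaks to the nearest IRF3 peak of caSmad3 cells ran from 0 to 1790515 bases. For 128 (39.6%) that peak was at most 1 kb away, for 21 between 1 and 10 kb, and for 174 (53.9%) farther. At the edge of the rule, the peaks at ZNF37A and POR directly touched a caSmad3 peak with 0 bases between them. On the other side, the shared peak at ADNP had 1 base in common and those at MOB1A and RHEBL1 had 2 and 3. In all, 7 control-only peaks had a caSmad3 peak within 10 bases, and 19 shared peaks had 10 bases or fewer in common. The centre farthest from a gene end was at 990 bases, and the nearest one left out for its distance was at 1014.

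Peaks at genes of the 3 interferon-related lists mostly stood far from any caSmad3 IRF3 peak. Of these 53 peaks, 3 had a caSmad3 peak within 1000 bases (at WARS1, ISG15 and SAMHD1), and their median distance was 112726 bases. It was 4864 bases for the other 270. The interferon-related peaks were also wider, with a median of 221 bases (99 to 2071), against 123 bases (99 to 759) for the others. Above 300 bases were 17 of the 53 and 6 of the 270. All control-only peaks together had a median of 130 bases, and 47 had the smallest width in the list, 99 bases (14.6%). Shared gene-end peaks had a median of 196 bases, and 7.29% had that smallest width. A narrow peak has fewer bases with which to meet another, so width is not independent of the rule.

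**Figure D4:**
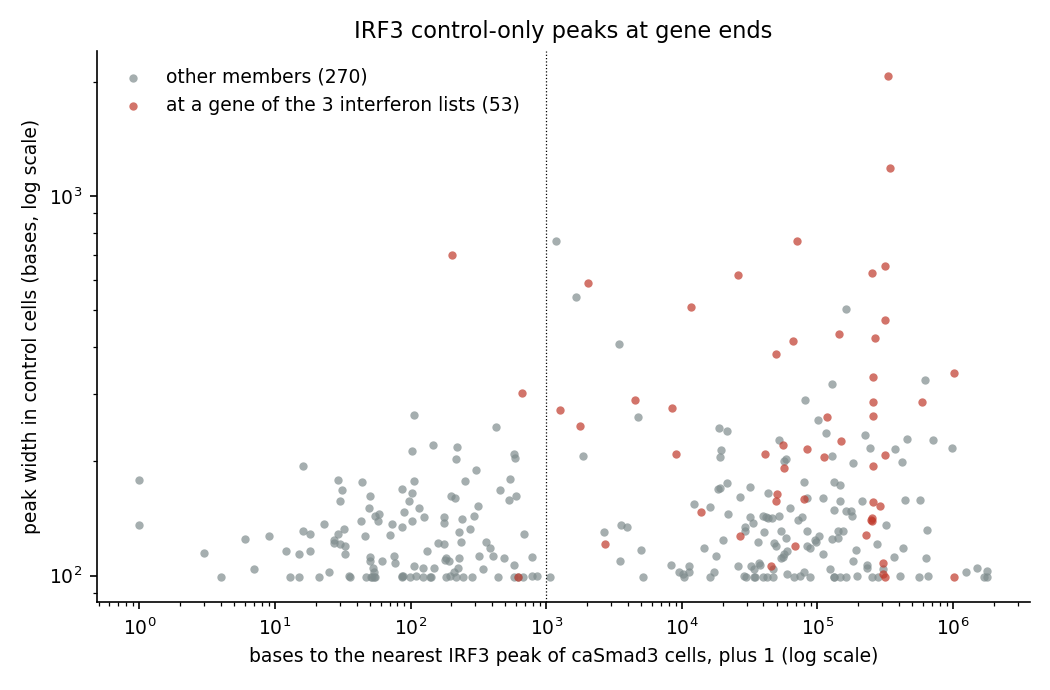
Width of each of the 323 control-only peaks in HA cells (y axis, bases, log scale) against the bases to the nearest caSmad3 IRF3 peak plus 1 (x axis, log scale); red points lie at genes of the 3 interferon-related lists, and the dotted line marks 1 kb. Red points lie mostly to the right of the line, and 3 of the 53 lie to its left.

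Gene ends here comprise starts and ends of genes, which could be told apart where the promoter table gives the strand. Of the 280 control-only peaks with a strand, 251 were nearest to a gene start (89.6%, 85.5 to 93.0) and 29 to a gene end. Shared peaks were nearest to a start in 2292 of 2347 cases (97.7%, 97.0 to 98.2). Around starts, the centre lay within 100 bases for 102 of 254 control-only peaks (40.2%, 34.1 to 46.5) and 1199 of 2313 shared peaks (51.8%, 49.8 to 53.9). The median distance was 141 and 96 bases. Opposed starts of 2 genes, as in head-to-head promoters, lay within 1 kb of 43 control-only peaks (16.9%, 12.5 to 22.1) and 422 shared peaks (18.2%, 16.7 to 19.9). Peaks nearest to a gene end included those of ZFP36, an mRNA-destabilising protein gene (542 bases, chr19:39408712-39409253), CXCL2, EGR1 and PMAIP1, the gene of the pro-apoptotic protein NOXA (291 bases, chr18:59904700-59904990).

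The Smad3 lists were not used to choose the peaks. Shared peaks, however, were set apart by an IRF3 peak of caSmad3 cells. Their comparison with control-only peaks for Smad3 in those same cells is therefore not fully independent of the rule. After mock transfection and TGF-beta, 0 of the 323 regions had a Smad3 peak over them, where 3 counts would make 0.929%. After polyI:C and TGF-beta there was 1 (0.310%), at IER5L (chr9:129176065-129176244). Shared gene-end peaks had a Smad3 peak in 31 (1.11%) and 97 (3.49%) of 2783 cases. In caSmad3 cells 24 control-only regions had one (7.43%, 4.82 to 10.9), against 902 shared peaks (32.4%, 30.7 to 34.2). Among peaks of up to 172 bases, the third quartile of control-only widths, the shares were 20 of 242 (8.26%, 5.12 to 12.5) and 219 of 1162 (18.8%, 16.6 to 21.2).

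At these 24 regions Smad3 was listed in caSmad3 cells with no IRF3 peak of the same cells over the IRF3 peak of HA cells, and none was at a gene of the 3 interferon-related lists. DDX60L, a relative of the antiviral helicase gene DDX60, had the widest of them (503 bases, chr4:168480189-168480691), with the nearest caSmad3 IRF3 peak 161370 bases away. It was followed by the head-to-head genes HIRIP3 and INO80E (265 bases), IER5L (180 bases) and JUN (179 bases). IER5L, HIRIP3 and INO80E were chosen after their values were seen. The nearest caSmad3 IRF3 peak at HIRIP3, IER5L and JUN was 104, 543 and 28 bases away. Regions with a caSmad3 IRF3 peak within 1 kb had a Smad3 peak in 15 of 128 cases (11.7%, 6.71 to 18.6) and the others in 9 of 195 (4.62%, 2.13 to 8.58).

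**Figure D5:**
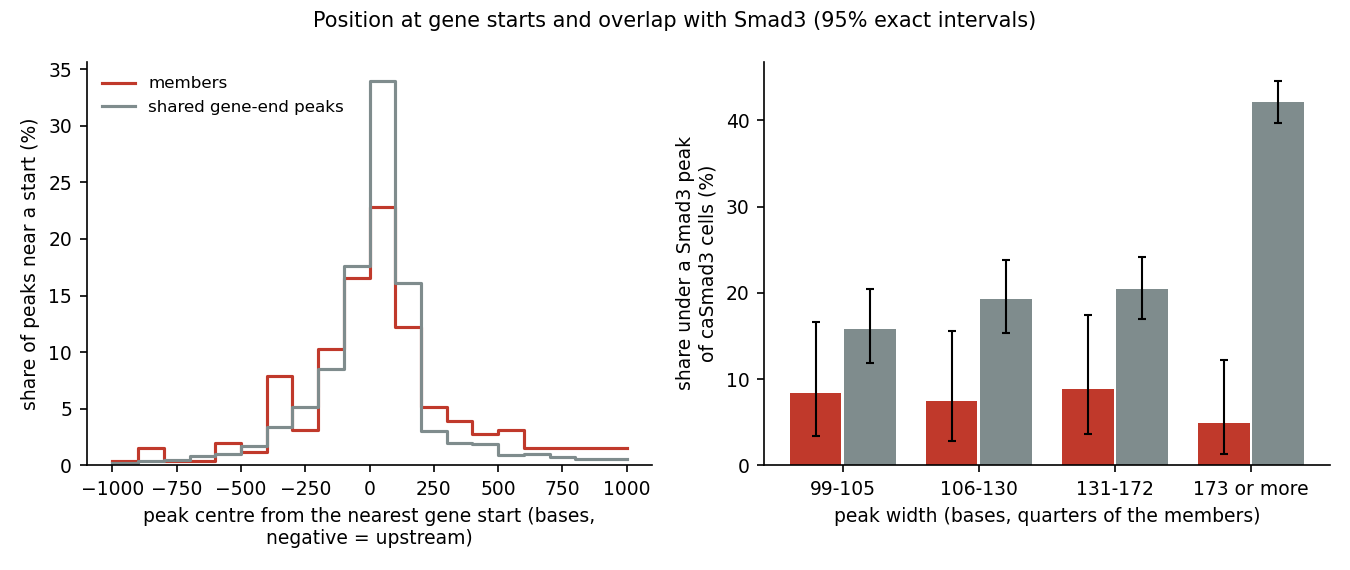
Left, position of peak centres around the nearest gene start (x axis, bases; y axis, percent of peaks near a start) for control-only (red) and shared (grey) gene-end peaks. Right, percent of peaks with a Smad3 peak of caSmad3 cells over them, by width, with 95% exact intervals; control-only peaks of 173 bases or more stand at 4.94% and shared ones at 42.1%.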

How the data were processed

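The authors deposited 1 peak list per library, with positions in bases and no score, fold or read count (per the labels and the values). Per the submitters' processing notes, the build was hg38, with Bowtie2 (2.2.2.6) and MACS2 (2.1.0) named as tools. The sources used here give no calling thresholds, input control or duplicate handling. The regions and gene lists were chosen with earlier results of these data known.

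Overlap meant at least 1 common base. Genes (20037 protein-coding) came from RefSeq, GRCh38.p14, and 15843 had a strand and promoter window. Where a gene had several windows, a motif in any of them counted. All 382 entries of 13 gene lists matched. Genes were named when they lay at 1 of the 20 widest control-only peaks, in a list (at most 8 per list, widest first) or in the 3 largest groups of neighbouring peaks. Further list members are named without that limit, and a few are not reported here by name. Counting motifs under peaks was added after seeing the data. Routines were tested on simulated peaks. Python 3.11.15, pandas 2.3.3 and scipy 1.17.1 were used.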

Additional observations from a re-analysis of the deposited data

How the results depend on the processing

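No paired analysis was possible because each group holds 1 library. Most values kept their size under the alternatives: for the main results, 68 alternatives stayed within the interval of the value or within 1.5 times the count, and the 21 below did not. The number of control-only peaks was 1500 when sharing needed 50% of both peaks in common, 71 in the wider 50% of HA peaks and 195 without those that had a caSmad3 peak within 1 kb (added after seeing the data). The share of genes of control-only peaks with an ISRE core was 33.9% in the wider 50% of peaks, 17.4% without a caSmad3 peak within 1 kb and 43.2% with 1 mismatch. The Smad3 overlap in caSmad3 cells was 12.7% when a Smad3 peak within 200 bases counted and 2.82% in the wider 50% of peaks. After polyI:C in HA cells it was 0 in the wider 50% and also in peaks no wider than the third quartile of control-only peaks (added). In the wider 50%, 78.9% of peaks were nearest to a gene start and the median distance to a caSmad3 peak was 58719 bases. AP-1 genes counted 1 within 500 bases, 1 with caSmad3 peaks within 200 bases counted as shared and 1 without those within 1 kb. TGF-beta/Smad targets counted 0 in each of these 3 settings, RNA sensing genes 1 in the last 2, and ribosomal protein genes 2 within 2 kb. The cause of these differences was not tested. Sequencing depth is unknown, so how far it limits the lists was not analysed here.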

Other observations

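Control-only peaks were unevenly spread over the chromosomes. On chromosome 4 they made up 21 of the 96 gene-end IRF3 peaks of HA cells (21.9%, 14.1 to 31.5), and on chromosome 8 it was 4 of 156 (2.56%, 0.703 to 6.44), where all chromosomes together gave 10.4%. Chromosome 4 holds the control-only peaks at HERC5, HERC6, DDX60L, CXCL2, CXCL3 and CXCL8 described above. Chromosomes 17 (5.31%), 20 (5.76%), 11 (5.83%) and 14 (5.88%) were the next lowest of those with any gene-end peak. Chromosomes 12 (18.8%), 22 (18.4%) and 7 (17.5%) were the next highest, and chromosome 19 had 15.8% (11.0 to 21.5). These shares were looked at after the data were seen, and no test was made.

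PPP1R15A, which encodes the stress-induced phosphatase subunit GADD34, had control-only peaks of 130 and 109 bases near its end (chr19:48875331-48875460 and chr19:48876158-48876266) besides a shared peak. The first of them had a Smad3 peak of caSmad3 cells over it, and the nearest caSmad3 IRF3 peak was 2654 bases away. Further regions under a Smad3 peak of caSmad3 cells lay at CDKN2A (102 bases), H4C8 (102 bases), PSMD6 (124 bases) and USP15 (139 bases), which stood 53, 208, 26 and 102 bases from a caSmad3 IRF3 peak. These genes were chosen after their values were seen.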
